A study of Mus musculus with 45 samples.

Results

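mmu-mir-143-3p, mmu-mir-145a-5p and mmu-mir-145a-3p come from the cluster of miR-143 and miR-145, and mmu-mir-199a-5p, mmu-mir-199b-3p and mmu-mir-214-3p belong to the group of miR-199 and miR-214 precursors. These 6 of the 476 miRNAs found in any of 6 tables were taken by name, as miRNAs typical of smooth muscle cells and fibroblasts, and were read here in the alveolar macrophages (AMs) of mice. They were chosen by these names and by their higher normalized values after ozone (O3), so the differences between O3 and filtered air (FA) are given as a description, with no p-value. Tests were kept for sex, genotype, the difference in response between groups and the way single mice of a group varied. mmu-mir-143-3p, mmu-mir-145a-5p, mmu-mir-199b-3p and mmu-mir-214-3p were listed in all 6 tables, mmu-mir-199a-5p in 3 (both SP-A2 tables and that of co-ex males) and mmu-mir-145a-3p in 2 (both SP-A2 tables).

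Small RNA was sequenced from AMs washed out of the lungs of 45 mice, 21 males and 24 females aged 12 weeks, which inhaled FA or 2 ppm of O3 for 3 h and recovered for 18 h. SP-A2 (1A0) mice carried the human SP-A2 gene variant 1A0, co-ex mice carried the human SP-A1 (6A2) and SP-A2 (1A0) variants together, and KO mice lacked surfactant protein A (SP-A). All were labelled C57BL/6, and the humanized mice derive from SP-A KO mice of C57BL/6J origin, so that all 3 genotypes share the loss of mouse SP-A. Genotypes are those of the labels, since miRNA tables do not measure SP-A transcripts. Groups held 3 SP-A2 males after each exposure, 4 co-ex males after FA and 3 after O3, and 4 mice in each of the other 8 groups, with 1 mouse per library. The females were synchronized for the estrous cycle. The promoter that drives the human genes is not given in the sources used here. Values are normalized read numbers, reads divided by a factor of each mouse within the table of 1 genotype and sex, so that levels of different tables are not on 1 scale. Each mouse had from 137965 to 2884013 reads in its table.

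miRNAs are short RNAs that pair through bases 2 to 8 of their 5′ end, the seed, with messenger RNAs and lower their translation or stability. miR-143 and miR-145 are made from a shared primary transcript that is abundant in smooth muscle, where they favor the contractile state, and fibroblasts express them too. miR-199a and miR-214 are cut from the noncoding RNA Dnm3os, which is expressed in mesenchymal cells of the embryo and in activated fibroblasts. In the lung these miRNAs are known from vascular and airway smooth muscle and from fibroblasts, while miR-21, miR-223 and miR-142 are abundant in macrophages and other blood cells.

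The mature sequences of the miR-199 and miR-214 members (RefSeq, GRCm38.p6) are shown because they set which reads can be told apart, with the seed in capitals. Sequences were matched by name for 3 of the 6 members.
mmu-miR-199a-5p: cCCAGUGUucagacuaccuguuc
mmu-miR-199b-3p: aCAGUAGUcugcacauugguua
mmu-miR-199a-3p: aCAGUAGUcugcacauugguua
mmu-miR-214-3p: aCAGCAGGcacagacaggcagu
mmu-miR-214-5p: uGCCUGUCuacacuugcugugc
The 22 bases of miR-199b-3p and miR-199a-3p were identical, and these were the only 2 of the 1679 mature miRNAs of the RefSeq table with their seed. mmu-mir-199b-3p is the name under which this sequence was analysed here, so that the value of mmu-mir-199b-3p may come from any of 3 precursors, Mir199a-1, Mir199a-2 and Mir199b. The seed of miR-199a-5p was found in no other mature miRNA that the RefSeq table names. That table lacks the 5′ arm of Mir199b, mmu-mir-199b-5p, and the Mir199b hairpin below also holds the bases of this seed. The seed of miR-214-3p was shared with miR-761, which is not among the miRNAs analysed here.

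Mir199a-2 and Mir214 lie on the plus strand of chromosome 1 (chr1:162217814-162217923 and chr1:162223368-162223477, GRCm38.p6), 5444 bases apart. By the GENCODE M21 annotation, both hairpins lie in an exon of Dnm3os and, on the opposite strand, in an intron of the protein-coding gene Dnm3. Mir199b (chr2:32318460-32318569, plus strand) lies within an intron of Dnm1, and Mir199a-1 (chr9:21496495-21496564, minus strand) within an intron of Dnm2, each on the strand opposite to the gene. The hairpins are shown with the mature arms that the RefSeq table names in capitals, since the 2 arms of a hairpin are counted as separate miRNAs below.
Mir199a-2: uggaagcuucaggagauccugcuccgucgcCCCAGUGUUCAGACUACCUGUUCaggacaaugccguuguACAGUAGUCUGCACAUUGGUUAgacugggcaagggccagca
Mir214: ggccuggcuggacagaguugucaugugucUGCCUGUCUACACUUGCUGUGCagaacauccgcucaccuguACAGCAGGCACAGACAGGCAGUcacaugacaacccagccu
Mir199b: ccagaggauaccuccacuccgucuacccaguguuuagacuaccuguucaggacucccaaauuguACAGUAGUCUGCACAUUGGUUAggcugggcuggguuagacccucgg
The first 2 hairpins hold both arms, and that of Mir199b has 1 named arm in the table, the 3′ arm that is identical to the 3′ arm of Mir199a-2.

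The macrophage label was set beside 7 miRNAs known from macrophages and other blood cells. Their presence cannot tell how pure the cells were. All 7 were listed in 5 tables and 6 in co-ex males, and mmu-mir-21a-5p and mmu-mir-223-3p had the highest means in every table. Over the tables, which were scaled apart, their summed normalized value was between 5264 and 162944 in the FA mice and between 8201 and 157824 in the O3 mice. The listed members were a small part of the reads. Their summed share was between 0.0121% and 0.305% of the reads on listed miRNAs in the FA mice, and between 0.169% and 1.21% in the O3 mice. Since the cells were sequenced in bulk, more cells of another type and more of these RNAs per cell cannot be told apart.

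mmu-mir-143-3p, the main arm of miR-143, was the most abundant member, with a median normalized value of 1127 over the 45 mice, whose tables were scaled apart. It had reads in every mouse. In SP-A2 males it was at 877, 2229 and 1273 in the FA mice and 8616, 4201 and 3003 in the O3 mice. The values in SP-A2 females were 674, 125, 185 and 1127 in the FA mice and 3097, 1787, 2507 and 1363 in the O3 mice. In both tables every O3 mouse was above every FA mouse. The means were 1459 ± 695 (SD, n = 3) after FA and 5273 ± 2956 (SD, n = 3) after O3 in males, and 528 ± 469 (SD, n = 4) after FA and 2189 ± 768 (SD, n = 4) after O3 in females. The log2 difference, O3 minus FA on log2(normalized value + 1), was 1.82 (SE 0.49) in males and 2.51 (SE 0.63) in females.

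In co-ex males, mmu-mir-143-3p was at 1664, 254, 42.7 and 805 in the FA mice and 5795, 1648 and 1273 in the O3 mice, and the groups overlapped because FA replicate 1 was above O3 replicates 2 and 3. In co-ex females, it was at 40.0, 114, 632 and 1.24 in the FA mice and 5906, 733, 2919 and 3195 in the O3 mice. FA replicate 4 of the females had 1 read of it, and FA replicate 3 was the highest of its group, still below the lowest O3 mouse. On the log2 scale the difference was 2.72 (SE 1.13) in males and 5.63 (SE 1.26) in females, where the means were 197 ± 294 (SD, n = 4) after FA and 3188 ± 2120.4 (SD, n = 4) after O3.

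In KO males, mmu-mir-143-3p was at 369.6, 837, 67.4 and 463 in the FA mice and 3937, 3717, 5369 and 2832 in the O3 mice. KO females had 126, 473, 57.6 and 217 in the FA mice and 1362, 1093, 693 and 1895 in the O3 mice. The groups did not overlap in either sex. The fitted log2 difference was 3.62 (SE 0.67) in males and 2.83 (SE 0.74) in females. mmu-mir-143-3p was thus apart in 5 of the 6 tables, with co-ex males as the exception.

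**Figure D1:**
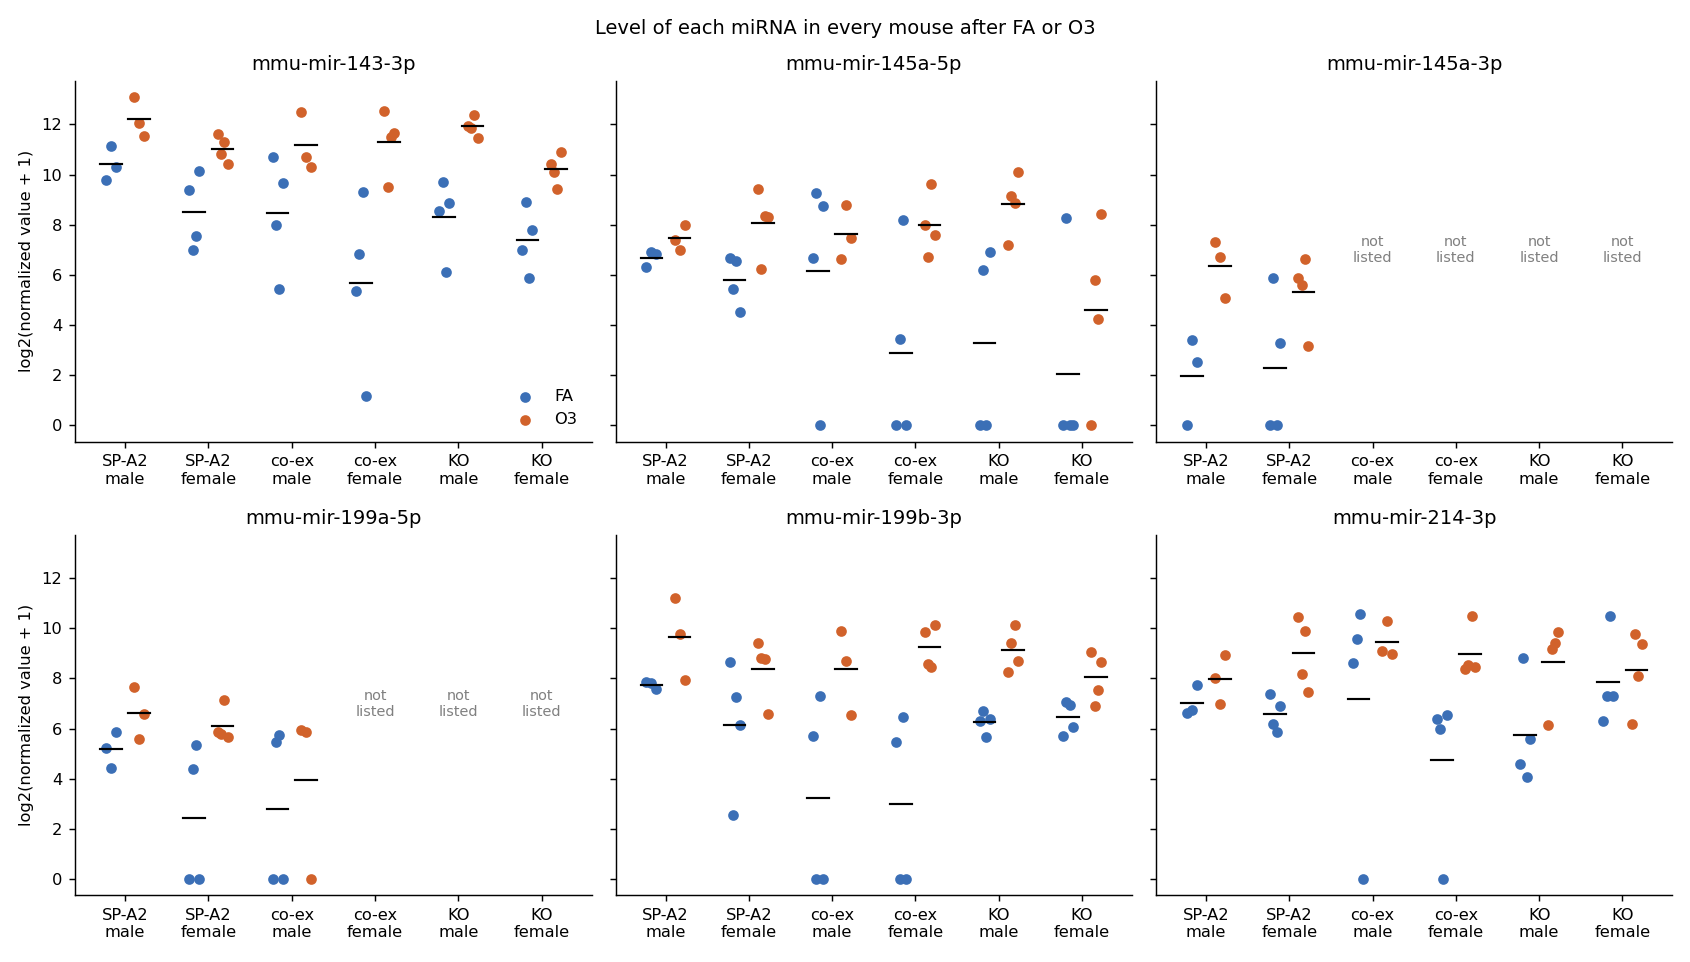
Each point is 1 mouse, with log2(normalized value + 1) on the y axis, the 6 tables on the x axis, FA in blue, O3 in orange and the group mean as a black line. mmu-mir-143-3p was apart between O3 and FA in 5 of 6 tables, while values of 0 after FA were common for the other members.

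mmu-mir-145a-5p, the main arm of miR-145a and a regulator of the contractile state of smooth muscle through KLF4 and KLF5, was lower than mmu-mir-143-3p in 44 of 45 mice. In SP-A2 males it was at 78.4, 118 and 112 in the FA mice and 167, 127 and 254 in the O3 mice, so that the groups were apart by a small gap. In SP-A2 females it was at 99.7, 42.1, 92.7 and 21.8 in the FA mice and 689.5, 73.6, 323 and 315 in the O3 mice, and O3 replicate 2 lay within the range of the FA mice. O3 minus FA on the log2 scale was 0.79 (SE 0.54) in SP-A2 males and 2.29 (SE 0.79) in the females.

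In co-ex males, mmu-mir-145a-5p was at 102, 609.6, 0 and 424 in the FA mice and 99.1, 436 and 178 in the O3 mice. Here the mean was lower after O3, 284 ± 283 (SD, n = 4) after FA and 238 ± 176 (SD, n = 3) after O3, while the log2 difference was 1.47 (SE 2.35), with 1 FA mouse at 0. The log2 difference came to -0.59 without that mouse, FA replicate 3, and was negative with both count tests, so that its direction depended on that mouse and on the test. In co-ex females the values were 0, 9.77, 287 and 0 in the FA mice and 250.2, 104, 795 and 193 in the O3 mice. FA replicate 3 of the females was the exception to low FA values, as it was for mmu-mir-143-3p. The log2 difference in co-ex females was 5.08 (SE 2.17).

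In KO males, mmu-mir-145a-5p was at 0, 71.5, 0 and 119.6 in the FA mice and 145.1, 565, 461 and 1099 in the O3 mice, with no overlap and a log2 difference of 5.55 (SE 1.80). In KO females it was at 0, 305, 0 and 0 in the FA mice and 0, 54.6, 17.9 and 343 in the O3 mice, and both groups held 1 mouse far above the others. The log2 difference there was 2.55 (SE 2.32), and the means were 76.2 ± 152 (SD, n = 4) after FA and 104 ± 161 (SD, n = 4) after O3. Over the tables, 8 of 23 FA mice and 1 of 22 O3 mice were at 0, without regard to the depth of each mouse. A value of 0 allows up to 3 reads, a limit that covers counting error only.

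mmu-mir-145a-3p, the minor arm of the same hairpin, was listed for SP-A2 mice only. In males it was at 0, 9.62 and 4.70 in the FA mice and 158, 103 and 33.0 in the O3 mice, which was 0, 8 and 4 reads against 208, 141 and 35. In females it was at 0, 57.2, 0 and 8.73 in the FA mice and 57.5, 47.5, 99.3 and 8.04 in the O3 mice. The males were apart and the females overlapped. FA replicate 2 of the females, with 83 reads, was above 2 of the O3 mice, and FA replicate 4 above 1. The log2 difference was 4.39 (SE 1.21) in males and 3.04 (SE 1.55) in females. The 3′ arm made up 3.86% ± 3.78 of the reads of both arms after FA and 35.0% ± 20.4 after O3 in males (SD, n = 3 each). In females its share was 21.6% ± 27.6 after FA and 18.2% ± 16.6 after O3 (SD, n = 4 each), so that a higher share of this arm after O3 was seen in males alone, and the difference between the sexes was not tested.

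mmu-mir-199b-3p, whose sequence is that of miR-199a-3p and which represses MET and MTOR, was at 230.1, 223 and 189 in the FA mice and 2388, 871 and 241 in the O3 mice in SP-A2 males. The FA males lay close together, and O3 replicate 3 was just above them. In SP-A2 females it was at 397, 4.83, 152 and 69.9 in the FA mice and 684, 445, 436 and 93.5 in the O3 mice, with overlap, since O3 replicate 4 was below FA replicates 1 and 3. The fitted log2 difference was 1.89 (SE 0.71) in males and 2.24 (SE 1.12) in females.

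In co-ex males, mmu-mir-199b-3p was at 50.9, 0, 154 and 0 in the FA mice and 936, 415 and 91.0 in the O3 mice. In co-ex females it was at 43.1, 0, 87.9 and 0 in the FA mice and 926, 379, 349 and 1119 in the O3 mice. In each sex 2 FA mice were at 0, and the groups were apart in females but not in males, where FA replicate 3 was above O3 replicate 3. O3 minus FA on the log2 scale was 5.12 (SE 2.94) in males and 6.27 (SE 1.86) in females, the highest of any member in any table. On the linear scale the means in females were 32.8 ± 42.0 (SD, n = 4) after FA and 693 ± 389 (SD, n = 4) after O3.

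In KO males, mmu-mir-199b-3p was at 78.8, 104, 49.7 and 81.6 in the FA mice and 304, 677, 1115 and 408 in the O3 mice, with a log2 difference of 2.85 (SE 0.73) and no overlap. In KO females it was at 50.9, 132, 123 and 65.9 in the FA mice and 535, 118, 186 and 404 in the O3 mice. O3 replicate 2 of the females lay among the FA mice, and the log2 difference was 1.60 (SE 1.01).

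mmu-mir-199a-5p, the 5′ arm of the Mir199a hairpins and a repressor of caveolin 1 in lung fibroblasts, was lower than mmu-mir-199b-3p in 18 of 21 mice and equal in 1. In SP-A2 males it was at 36.6, 20.4 and 57.5 in the FA mice and 201, 47.5 and 94.3 in the O3 mice. In SP-A2 females it was at 0, 20.0, 39.7 and 0 in the FA mice and 57.5, 54.0, 140.0 and 50.3 in the O3 mice, where the groups were apart and 2 FA mice were at 0. In co-ex males it was at 0, 43.1, 52.6 and 0 in the FA mice and 60.2, 56.7 and 0 in the O3 mice, and 2 FA mice and 1 O3 mouse were at 0. The log2 difference came to 1.43 (SE 0.80), 3.68 (SE 1.45) and 1.13 (SE 2.74) in these 3 tables. In the co-ex males both O3 values above 0 were higher than every FA value, and the O3 mouse at 0 made the groups overlap.

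mmu-mir-214-3p, which is cut from the same host RNA as miR-199a-2, was at 97.6, 106 and 211 in the FA mice and 258, 126 and 482 in the O3 mice in SP-A2 males, where the groups overlapped. In SP-A2 females it was at 163, 72.4, 56.9 and 118 in the FA mice and 1402, 284, 957 and 176 in the O3 mice, with every O3 mouse above every FA mouse. On the log2 scale the difference was 0.94 (SE 0.61) in males and 2.42 (SE 0.69) in females.

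In co-ex males, mmu-mir-214-3p was at 392, 761, 1498 and 0 in the FA mice and 550.1, 1249.6 and 503 in the O3 mice. The highest of these 7 values belonged to an FA mouse, and the mean was 663 ± 638 (SD, n = 4) after FA and 768 ± 418 (SD, n = 3) after O3. In co-ex females it was at 83.1, 61.9, 0 and 93.1 in the FA mice and 329, 371, 1441 and 354 in the O3 mice, where the groups were apart. The log2 difference was 2.27 (SE 2.05) in males, -0.12 without FA replicate 4 (the mouse at 0), and 4.24 (SE 1.56) in females.

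In KO males, mmu-mir-214-3p was at 22.7, 449, 15.7 and 46.3 in the FA mice and 69.6, 569, 674 and 928 in the O3 mice. In KO females it was at 78.3, 158, 1425 and 158 in the FA mice and 70.8, 865, 273 and 660.4 in the O3 mice. FA replicate 2 of the males and FA replicate 3 of the females were far above the other FA mice, and O3 replicate 1 of each sex was low. O3 minus FA on the log2 scale was 2.89 (SE 1.23) in males and 0.49 (SE 1.02) in females, and the latter was -0.02 without FA replicate 1.

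Of the other arms, mmu-mir-214-5p and mmu-mir-199b-5p were listed in SP-A2 males alone. mmu-mir-214-5p had no reads in the 3 FA males and 6, 15 and 49 reads in the O3 males. A floor of 3 reads in each FA mouse gave a mean of 4.12, and the mean normalized value after O3 was 20.6 ± 22.4 (SD, n = 3). With no reads after FA, this arm was listed through its O3 reads alone. Its direction was thus fixed in advance, and no fold is read from it. The O3 values were 4.57, 11.0 and 46.2, so that O3 replicate 3 led the mean and O3 replicate 1 was near the floor. The floor covers counting error in the FA mice only, and limma did not call this arm. mmu-mir-199b-5p had 0, 1 and 3 reads after FA and 28, 3 and 8 after O3, with overlap. mmu-mir-143-5p and mmu-mir-145b were not analysed here.

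Over the 6 tables, the members gave 29 pairs of a miRNA and a table, and the log2 difference was above 0 in 29 of 29 pairs, but 3 of these turned below 0 in another fit (mmu-mir-145a-5p and mmu-mir-214-3p in co-ex males and mmu-mir-214-3p in KO females). Of all listed miRNAs, 57.1% (males) and 57.6% (females) were above 0 for SP-A2, 67.1% and 58.3% for co-ex, and 43.0% and 64.1% for KO. The ratio of means was below 1 in 1 pair. The groups were apart, with O3 higher, in 14 of 29 pairs. In SP-A2 males this was 4 of 6 members, and 12.7% of all listed miRNAs were apart in that direction. It was 3 of 6 in SP-A2 females (all listed miRNAs, 3.49%). For co-ex it was 0 of 5 in males (6.41%) and 3 of 4 in females (5.86%). In KO it was 3 of 4 in males (6.1%) and 1 of 4 in females (3.14%). The contrast was the one that the members were known by, so nothing is read from these counts.

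At an FDR of 0.1 (limma with the Benjamini-Hochberg adjustment over all listed miRNAs), mmu-mir-143-3p in co-ex females and mmu-mir-143-3p and mmu-mir-199b-3p in KO males passed the threshold with O3 higher, 3 of the 29 pairs. Since the members were chosen on this contrast, nothing is read from these counts either. In co-ex females 0 members passed in edgeR, without FA replicate 1 or 2, or without O3 replicate 1, and in KO males 1 passed at an FDR of 0.05, and without any of FA replicates 1, 3 and 4 and O3 replicates 2 and 3. Among all miRNAs, 0.446% of 448 in males and 0.804% of 373 in females of SP-A2 were called higher. For co-ex this was 0% of 234 in males and 1.38% of 290 in females, and for KO 4.88% of 328 in males and 0% of 287 in females. The 2 tables without calls had 8 (co-ex males) and 22 (KO females) miRNAs at an unadjusted p below 0.05, and DESeq2 on recovered reads called 5 and 2 miRNAs there. The median log2 difference of the listed members, over the SP-A2, co-ex and KO tables with males first, was 1.63, 2.47, 2.27, 5.36, 3.25 and 2.08. The median of all listed miRNAs was 0.17, 0.18, 0.64, 0.31, -0.29 and 0.45.

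**Figure D2:**
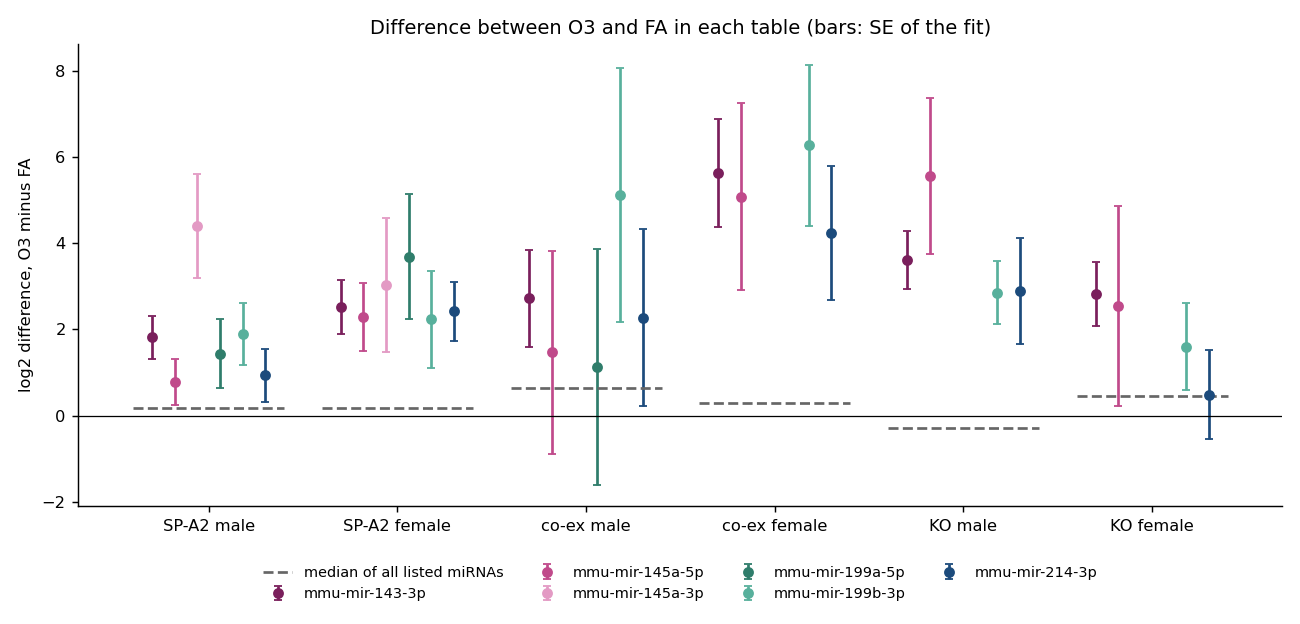
The log2 difference between O3 and FA of each member (points, with the SE of the fit as bars) in each table, beside the median of all listed miRNAs (dashed lines). The 29 points lie above 0, although 3 of them turned below 0 in another fit, and the longest bar is that of mmu-mir-199b-3p in co-ex males, where 2 of 4 FA mice were at 0.

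Within a mouse, the members kept a steady order of levels in some pairs only. mmu-mir-143-3p was above mmu-mir-199b-3p in 42 and above mmu-mir-214-3p in 40 of 45 mice, and it was above mmu-mir-145a-3p in 14 of 14. mmu-mir-214-3p was above mmu-mir-145a-5p in 35 of 45 mice. mmu-mir-199b-3p and mmu-mir-214-3p, by contrast, had no constant order, with mmu-mir-199b-3p higher in 19 mice, mmu-mir-214-3p in 25 and equal values in 1. The median normalized values over the 45 mice were 1127 for mmu-mir-143-3p, 258 for mmu-mir-214-3p, 186 for mmu-mir-199b-3p and 112 for mmu-mir-145a-5p. Those of the members in fewer tables were 47.5 for mmu-mir-199a-5p (21 mice) and 21.3 for mmu-mir-145a-3p (14 mice). These medians pool tables that were scaled apart, so they give a rough order only. They are read numbers, and mature miRNAs of near equal length can still differ in how well they are captured in a library.

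Whether members of 1 cluster vary together was tested on what the choice of the members did not use, the deviation of each mouse from the mean of its group on the log2 scale. mmu-mir-143-3p and mmu-mir-145a-5p deviated together (Pearson's r = 0.57 over 45 mice, two-sided permutation test within groups with 100000 resamples, p = 0.00344, adjusted p = 0.0516 over the 15 pairs of members computed). Spearman's rho was 0.43 (permutation p = 0.0140, adjusted p = 0.210). Without the 2 mice farthest from the median of mmu-mir-143-3p, r was 0.49 (permutation test, adjusted p = 0.131), so that the call rested on those mice. With the median over all miRNAs of each mouse subtracted, r was 0.65 (permutation test, adjusted p = 0.0184), and with a pseudocount of 10 it was 0.53 (permutation test, adjusted p = 0.104). Among the 205 other miRNAs of all 6 tables, mmu-mir-143-3p was the one most correlated with mmu-mir-145a-5p, and mmu-mir-145a-5p ranked second for mmu-mir-143-3p.

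The members of the other cluster were not shown to vary together. For mmu-mir-199b-3p and mmu-mir-214-3p the values were r = 0.14, rho = 0.10, permutation p = 0.634 and 0.591, adjusted p = 0.796 and 0.792 over 45 mice, and r without the 2 farthest mice was 0.04. For mmu-mir-199a-5p, which may come from Mir199a-2 in Dnm3os or from Mir199a-1, and mmu-mir-214-3p they were r = 0.40, rho = 0.32, permutation p = 0.208 and 0.224, adjusted p = 0.714 and 0.690 over 21 mice, and r was 0.33 without the 2 farthest. The arms of miR-145a gave r = -0.31, rho = -0.29, permutation p = 0.371 and 0.358, adjusted p = 0.796 and 0.690 over 14 mice, and r was -0.34 without the 2 farthest. Some single mice, named for their extreme values, had a high value of a member of 1 cluster with a low value or 0 of a member of the other. KO female FA replicate 3 had the highest mmu-mir-214-3p of its table (1425) and the lowest mmu-mir-143-3p (57.6), and co-ex male FA replicate 4 had 424 of mmu-mir-145a-5p with 0 of mmu-mir-214-3p. Across the clusters, mmu-mir-143-3p and mmu-mir-214-3p had r = -0.30, rho = -0.07, permutation p = 0.238 and 0.689, adjusted p = 0.714 and 0.795 over 45 mice, with r of -0.11 without the 2 farthest. Of the 15 pairs, 1 passed an FDR of 0.1 by Pearson's r and 0 by Spearman's rho.

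**Figure D3:**
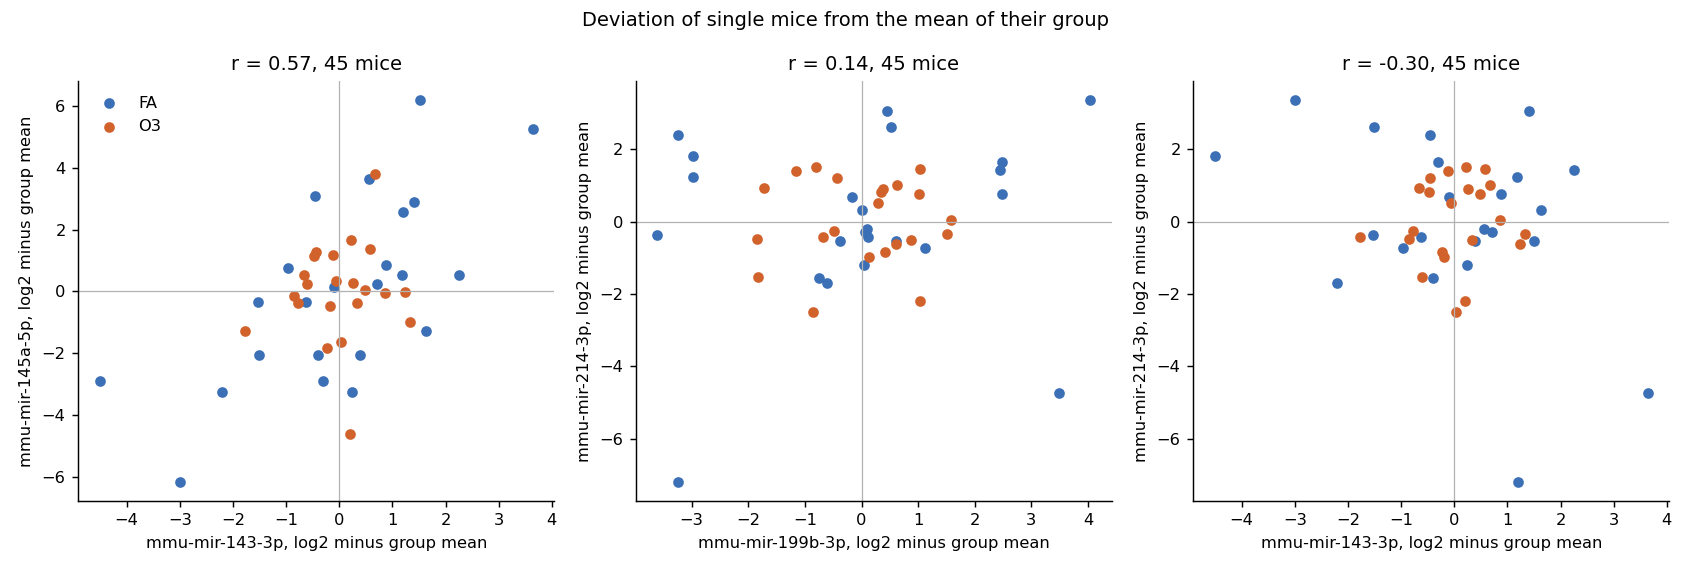
Each point is 1 mouse, placed by its log2 value minus the mean of its group for a pair of members, with FA in blue and O3 in orange. mmu-mir-143-3p and mmu-mir-145a-5p deviated together (r = 0.57), and the other pairs shown had r = 0.14 and r = -0.30.

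By the same measure over the 45 mice, the 3 miRNAs outside the members that were most like mmu-mir-143-3p were mmu-mir-99a-5p (r = 0.74), mmu-mir-21a-5p (r = 0.46) and mmu-mir-30b-5p (r = 0.45). Those most like mmu-mir-145a-5p were mmu-mir-326-3p (r = 0.41), mmu-mir-125b-5p (r = 0.34) and mmu-mir-652-3p (r = 0.34), and those most like mmu-mir-199b-3p were mmu-mir-672-5p (r = 0.70), mmu-mir-200b-3p (r = 0.62) and mmu-mir-451a (r = 0.60). mmu-mir-214-3p was most like mmu-mir-744-5p (r = 0.75), mmu-mir-1306-5p (r = 0.72) and mmu-mir-455-3p (r = 0.63). The 90th percentile of r over the 205 other miRNAs was 0.35, 0.25, 0.40 and 0.42 for these members in the same order. mmu-mir-99a-5p, mmu-mir-125b-5p and mmu-mir-455-3p are on the list of other mesenchymal miRNAs, mmu-mir-21a-5p is on the macrophage list, mmu-mir-200b-3p is an epithelial miRNA and mmu-mir-451a is an erythroid miRNA. All values of a mouse come from 1 library and share its factor.

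Males and females of 1 genotype were compared by edgeR (quasi-likelihood) from the recovered reads, with exposure in the model. mmu-mir-143-3p passed the threshold in no genotype. In SP-A2 mice the lowest, median and highest CPM, scaled over all mice together, were 962, 2753 and 9047 in 6 males and 163, 1499 and 2975 in 8 females. In KO mice they were 99.3, 1933 and 4972 in 8 males and 71.0, 757 and 2399 in 8 females. In co-ex mice they were 45.2, 1179 and 5194 in 7 males and 1.32, 853 and 6438 in 8 females, with a mean of 1568 in males and 1801 in females. The ranges overlapped in all 3 genotypes, and in co-ex the mean was higher in females while the fitted difference was above 0. The log2 difference, male minus female, was 1.19 (95% interval 0.28 to 2.10, adjusted p = 0.147) in SP-A2, 0.79 (95% interval -0.99 to 2.58, adjusted p = 0.998) in co-ex and 1.12 (95% interval 0.17 to 2.08, adjusted p = 0.508) in KO.

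None of the 14 tests of a member between the sexes passed the FDR of 0.1 in edgeR, and 2 had an unadjusted p below 0.05, both of mmu-mir-143-3p. DESeq2 called 1 member in SP-A2 and 1 in KO, mmu-mir-143-3p each time. Among all miRNAs, edgeR called 4.24% of 354 for SP-A2, 0% of 217 for co-ex and 0% of 270 for KO. The latter genotypes had 16 and 21 miRNAs with an unadjusted p below 0.05, and DESeq2 called 0 and 13. The direction for mmu-mir-214-3p differed between the genotypes, with -0.58 (95% interval -1.53 to 0.37, adjusted p = 0.478) in SP-A2, 1.81 (95% interval -0.38 to 4.01, adjusted p = 0.807) in co-ex and -0.95 (95% interval -2.62 to 0.72, adjusted p = 0.834) in KO, where it was 0.06 without FA replicate 3 of the females. The differences of mmu-mir-145a-5p and mmu-mir-199b-3p lay between -0.29 and 0.78 log2 in the 3 genotypes, and those of mmu-mir-199a-5p and mmu-mir-145a-3p in SP-A2 were 0.79 and -0.62. Without FA replicate 2 of the SP-A2 females, the last was 0.73. The intervals of these differences reached from -2.86 to 3.84, so that differences of several-fold lay within them.

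Genotypes were compared over both sexes and exposures in 1 fit of 45 mice on the 206 miRNAs listed in all tables, which leaves mmu-mir-199a-5p and mmu-mir-145a-3p out. The lowest, median and highest CPM of mmu-mir-143-3p were 163, 1928 and 9047 in 14 SP-A2 mice, 1.32, 928 and 6438 in 15 co-ex mice and 71.0, 914 and 4972 in 16 KO mice. Those of mmu-mir-199b-3p were 6.30, 251 and 2507 in SP-A2, 0, 108 and 1156 in co-ex and 67.2, 171 and 1033 in KO. The groups overlapped throughout, and SP-A2 had the highest median of both. mmu-mir-143-3p differed by 1.02 (95% interval 0.07 to 1.96, adjusted p = 0.230) between SP-A2 and KO, and mmu-mir-199b-3p by -1.34 (95% interval -2.66 to -0.01, adjusted p = 0.138) between co-ex and SP-A2 (log2, edgeR).

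These were the 2 of 12 tests of members between genotypes with an unadjusted p below 0.05, and 0 passed the FDR of 0.1 in edgeR. DESeq2 called mmu-mir-143-3p between SP-A2 and KO and mmu-mir-143-3p and mmu-mir-199b-3p between co-ex and SP-A2. Among all miRNAs, edgeR called 9.22% of 206 between SP-A2 and KO, 3.4% between co-ex and KO and 30.6% between co-ex and SP-A2. These shares are not those of DESeq2. The share of all miRNAs called by DESeq2 is not given here, so nothing is read from its calls of members. Genotypes were laid out in separate tables, and whether each was handled apart from the others in the laboratory is not given in the sources used here. mmu-mir-145a-5p and mmu-mir-214-3p had no unadjusted p below 0.05. For mmu-mir-145a-5p the largest of the 3 differences was 0.65 (95% interval -1.18 to 2.48, adjusted p = 0.809), co-ex minus KO (-0.54 without co-ex female FA replicate 3 and 3.03 without KO female FA replicate 2), and for mmu-mir-214-3p it was -0.66 (95% interval -1.93 to 0.60, adjusted p = 0.718), SP-A2 minus KO.

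**Figure D4:**
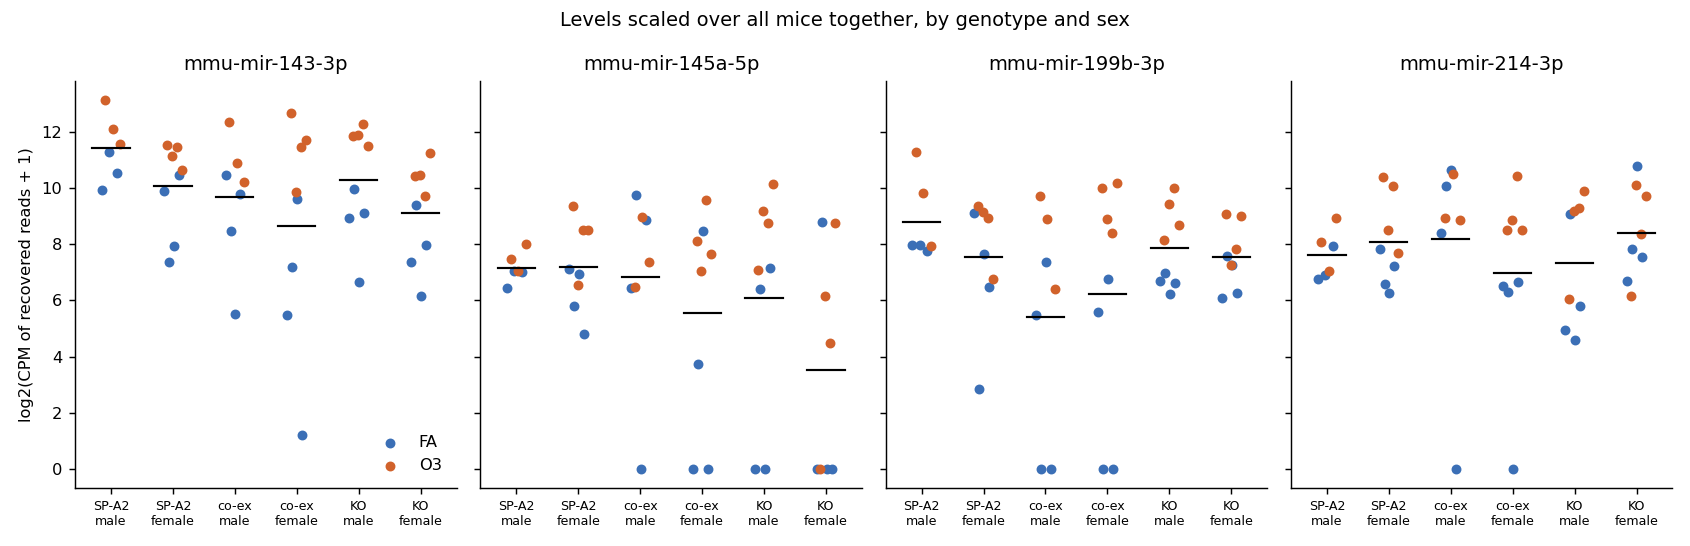
log2(CPM + 1) of the recovered reads of 4 members in every mouse, scaled over the 45 mice together, by genotype and sex, with FA in blue, O3 in orange and the mean of each table as a line. The ranges of the tables overlapped for all 4 members.

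Whether the difference between O3 and FA itself differed between groups was tested by interaction terms of a limma fit to the 45 mice. The largest such differences were those of mmu-mir-199b-3p. Its response by limma was larger in co-ex than in KO by 3.47 (95% interval 0.62 to 6.33, adjusted p = 0.360) log2 and larger in co-ex than in SP-A2 by 3.63 (95% interval 0.66 to 6.59, adjusted p = 0.668). These were the 2 of 16 tests with an unadjusted p below 0.05, and 0 passed the FDR of 0.1. In co-ex mice, 4 of 8 FA mice had no reads of mmu-mir-199b-3p, while no FA mouse of the other genotypes was at 0. The response of mmu-mir-143-3p differed by 2.01 (95% interval -0.25 to 4.27, adjusted p = 0.668) between co-ex and SP-A2 and by -0.94 (95% interval -2.75 to 0.87, adjusted p = 0.999) between males and females. Among all 206 miRNAs, 0% were called between the sexes, 0% between SP-A2 and KO, 0.971% between co-ex and KO and 0.485% between co-ex and SP-A2, and 4 and 5 miRNAs had an unadjusted p below 0.05 in the first 2 of these. edgeR on recovered reads called 0 members in any of the 4. No response of a member was shown to depend on sex or genotype, and the intervals span several log2 units.

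Other mesenchymal miRNAs (11 names, among them mmu-mir-125b-5p and mmu-mir-140-3p, the 2 most abundant) were mostly higher after O3, as the members were. Those listed were 10 (males) and 9 (females) for SP-A2, 6 and 10 for co-ex, and 9 and 7 for KO. Their log2 difference between O3 and FA was above 0 for 9, 9, 6, 10, 8 and 6 of them, with a median of 1.27, 1.81, 2.05, 2.74, 2.44 and 1.49. Of all listed miRNAs, 57.1%, 57.6%, 67.1%, 58.3%, 43.0% and 64.1% were above 0 in the same order. Called higher were mmu-mir-10a-5p in SP-A2 males, mmu-mir-100-5p and mmu-mir-125b-5p in SP-A2 females, mmu-mir-10a-5p and mmu-mir-125b-5p in co-ex females and mmu-mir-99a-5p, mmu-mir-100-5p and mmu-mir-125b-5p in KO males, and 0 in co-ex males and KO females. None was called lower. mmu-mir-125b-5p is named as 1 of the 2 most abundant, and the others because they were called, after their values had been seen. The list itself was chosen with earlier results of these data known, so the limma adjusted p-values below are a description. mmu-mir-125b-5p differed by 2.60 (SE 0.59, limma adjusted p = 0.0726) in the SP-A2 females, by 2.63 (SE 0.59, limma adjusted p = 0.0225) in the co-ex females and by 2.33 (SE 0.66, limma adjusted p = 0.0794) in the KO males. mmu-mir-140-3p, which is known from cartilage, differed by between -0.80 and 0.77 and was called in no table.

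The summed normalized value of the list in SP-A2 was 4725 to 6122 after FA and 7334 to 11429.7 after O3 in males and 2320.2 to 4153 after FA and 5477 to 21588 after O3 in females. In co-ex it was 1901 to 11263 after FA and 8142 to 13182 after O3 in males and 1194 to 4232 after FA and 6754 to 12902 after O3 in females. KO males had 2260.4 to 7446 after FA and 7263 to 14898 after O3, and KO females 2094 to 9696 after FA and 4069 to 14936 after O3. The sums were apart in both SP-A2 tables and in co-ex females, with O3 higher. Epithelial miRNAs (13 names, led by mmu-mir-200c-3p and mmu-mir-200b-3p) were listed in numbers of 12, 12, 10, 10, 11 and 10 in the same order of tables, and their median log2 difference was 0.71, 0.32, 1.34, 3.40, 0.87 and 1.21. None of them was called in limma in either direction. Their sum in SP-A2 was 6252 to 9093 after FA and 11546 to 12827 after O3 in males and 5015 to 9302 after FA and 5693 to 16187 after O3 in females. In co-ex it was 2414 to 10783 after FA and 10615 to 12608 after O3 in males and 839 to 5893 after FA and 6506 to 15614 after O3 in females. KO males had 2829.6 to 9256 after FA and 7000.1 to 26010.3 after O3, and KO females 4673 to 9438 after FA and 4578 to 17925 after O3. The sums were apart in SP-A2 males and co-ex females. The part of epithelial or other mesenchymal cells in the members' values was not tested.

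No muscle miRNA was called in limma. mmu-mir-1a-3p was listed in the SP-A2 and KO tables, mmu-mir-133a-3p in the SP-A2 tables, and mmu-mir-206-3p was not analysed here. The log2 difference of mmu-mir-1a-3p was -3.77 (SE 1.48, limma adjusted p = 0.224) in males and -1.38 (SE 2.19, limma adjusted p = 0.858) in females of SP-A2, and -1.23 (SE 3.32, limma adjusted p = 0.853) in males and -2.11 (SE 1.99, limma adjusted p = 0.763) in females of KO. That of mmu-mir-133a-3p was -3.63 (SE 1.24, limma adjusted p = 0.184) in males and 0.29 (SE 2.70, limma adjusted p = 0.977) in females of SP-A2. The sum of the list was 42.3 to 723 after FA and 10.4 to 47.2 after O3 in SP-A2 males and 101 to 376 after FA and 0 to 26041 after O3 in the females. It was 0 to 281 after FA and 0 to 48400.4 after O3 in KO males and 0 to 964 after FA and 0 to 15.6 after O3 in KO females, so that 1 O3 mouse of SP-A2 females and 1 of KO males held very high values. Endothelial mmu-mir-126a-3p was listed in 3 tables and differed by 4.78 (SE 0.91, limma adjusted p = 0.0576) in males and 5.37 (SE 1.45, limma adjusted p = 0.147) in females of SP-A2 and by 6.09 (SE 2.08, limma adjusted p = 0.174) in KO males, and mmu-mir-126a-5p was listed in SP-A2 males alone. The sum of the listed arms was 3.61 to 10.6 after FA and 79.2 to 359 after O3 in males and 0 to 30.6 after FA and 26.5 to 208 after O3 in females of SP-A2, and 0 to 0.927 after FA and 0 to 1094 after O3 in KO males. In no table was a listed marker of any list at 0 in every mouse.

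Of the 7 macrophage and blood miRNAs, 1 was called lower in SP-A2 males (mmu-mir-142a-3p) and 1 in SP-A2 females (mmu-mir-155-5p), and none was called higher. Both are named after their values had been seen. Their median log2 difference was 0.05, -0.83, 0.89, 0.16, -0.36 and 1.56 over the tables in the same order, and their sums overlapped between O3 and FA in every table. Erythroid miRNAs (4 names) were listed in numbers of 3, 3, 3, 1, 3 and 2, none was called, and their median log2 difference was -2.56, 0.02, 1.81, 2.24, 1.09 and -4.06. Their sum was at most 1391 after FA and 1859 after O3, and it was lower after O3 in KO females without overlap. Lymphoid mmu-mir-150-5p was not called in any table, with log2 differences between -1.55 and 2.68, and its value lay between 0 and 4909 after FA and between 22.0 and 11021 after O3.

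**Figure D5:**
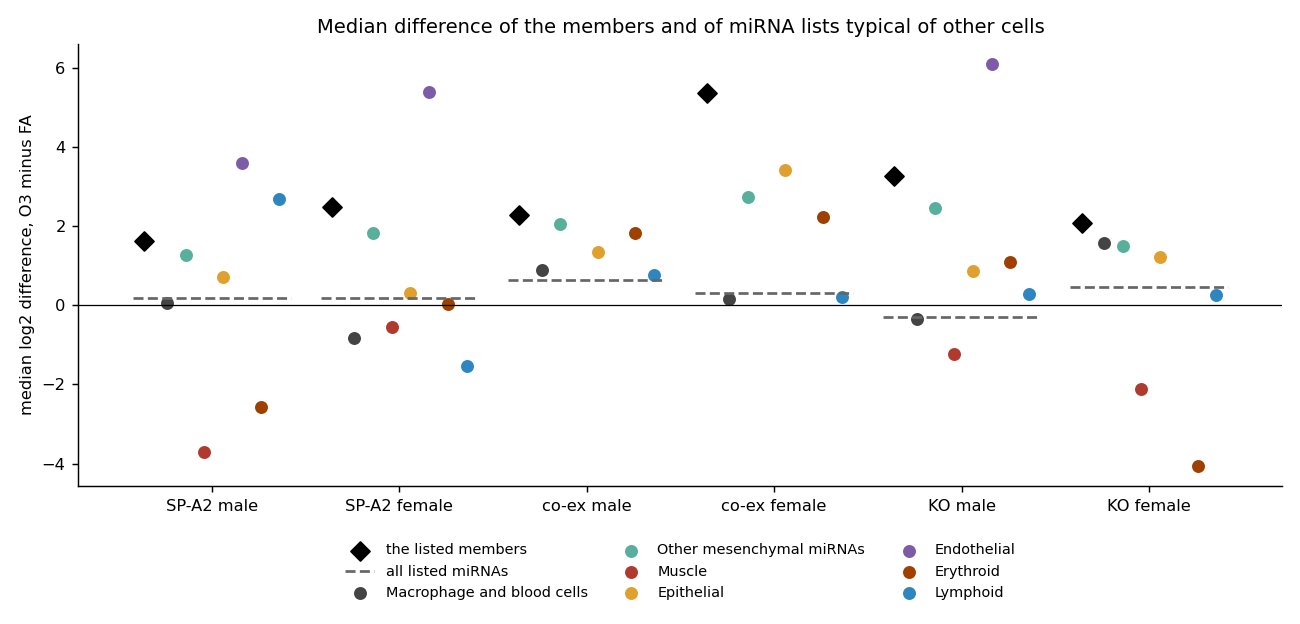
The median log2 difference between O3 and FA of the listed members (black diamonds), of all listed miRNAs (dashed lines) and of the miRNA lists (colored points) in each table. Lists with 1 or 2 listed miRNAs, such as the endothelial one, rest on few values. The other mesenchymal and the epithelial list both lay above the dashed line and below the members in all 6 tables.

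Within groups, the log2 sum of the 4 members of all tables was set beside the log2 sums of the lists, as a description over 45 mice whose values share a library and a factor. This comparison was chosen after the values had been seen. The sum is weighted to mmu-mir-143-3p, which was above mmu-mir-145a-5p, mmu-mir-199b-3p and mmu-mir-214-3p in 44, 42 and 40 of 45 mice. Its own r with mmu-mir-214-3p was -0.30, so the sum does not stand for each member. With the 6 other mesenchymal miRNAs of all tables, r = 0.65 and rho = 0.70 (0.63 for r without the 2 farthest mice). With the 9 epithelial miRNAs, r = 0.61 and rho = 0.58 (0.56 for r without the 2 farthest mice), and with mmu-mir-451a, the 1 erythroid miRNA of all tables, r = 0.68 and rho = 0.71 (0.64 for r without the 2 farthest mice). With the 6 macrophage and blood miRNAs, r = 0.00 and rho = 0.05 (-0.06 for r without the 2 farthest mice), with lymphoid mmu-mir-150-5p, r = -0.16 and rho = -0.22 (-0.15 for r without the 2 farthest mice), and with the log2 number of reads, r = -0.17 and rho = -0.11 (-0.26 for r without the 2 farthest mice). Mice that stood above their group in this sum thus tended to stand above it in other mesenchymal and epithelial miRNAs and in mmu-mir-451a. The latter had a low median normalized value of 21.8, and the other erythroid names were not in this comparison.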

How the data were processed

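Small RNA libraries (NEXTflex Small RNA v3) of alveolar macrophages of 45 mice were sequenced on an Illumina HiSeq instrument. The authors deposited 6 tables, 1 per genotype and sex, and their values were treated as signal, normalized read values per miRNA and mouse, since each is a whole number of reads divided by a factor of the mouse. Dividing by the smallest step gave whole reads for 100% of the values in every mouse (tolerance 0.05, fewest values within 20 steps 13 per mouse, 8 mice with 100 or more). The labels name CASAVA and edgeR, the methods edgeR and TCC, and the deposited tables carry DESeq2 in their names, so that the tool that scaled the values is unsure, while aligner, miRNA reference and genome build are not given in the sources used here. Reads counted without molecular identifiers are not independent molecules, and all limits cover counting error only. Total reads per mouse had a median of 766213, and of the 63 pairs of mice within groups the closest differed by a chi-square per degree of freedom of 53.8, so each mouse counted once. The authors' columns of p-values, q-values and ranks were not used. No batch is named in the labels.

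Within each table, the O3 and FA mice were contrasted by limma 3.58.1 (trend) on log2(normalized value + 1), which understates changes of low miRNAs, with the Benjamini-Hochberg adjustment over all miRNAs of the table and an FDR of 0.1. Sexes and genotypes were compared with edgeR 4.0.16 (TMM, robust quasi-likelihood test) on recovered reads, and responses with limma interactions, in R 4.3.3. Deviations from group means were correlated with 100000 permutations of mice within groups. Alternatives were pseudocounts of 0.1 and 10, a filter at 10, FDR 0.05, median-ratio or RLE scaling, filterByExpr, edgeR, DESeq2 1.42.0, a block on the replicate number and leaving out each mouse. The limma fits within tables and the edgeR fits were run on simulated data with 8-fold changes. The spread between simulated mice was set rather than taken from these mice, so no power for these data is read from them. The members, the lists and the tests were chosen with earlier results of these data known. Named miRNAs are the 6 members, the other arms of their precursors, the 3 miRNAs most correlated with each member, the 2 highest markers of each list, and called markers, the last named after their values were seen.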

Additional observations from a re-analysis of the deposited data

Results flagged for a closer look

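In groups of 4 mice, 41 sets of values of a member were searched for 1 mouse far from the other 3 (gap to the nearest over the range above 0.829), and 8 were found. Normally distributed values pass this cutoff about 1 in 20 times. The values searched were on the linear scale and often at 0, so that rate does not apply and no excess is read from the count. All 8 were the highest mouse of the group. For mmu-mir-145a-5p they were co-ex female FA replicate 3 with a normalized value of 287 (next 9.77), KO female FA replicate 2 with 305 (next 0) and KO female O3 replicate 4 with 343 (next 54.6). For mmu-mir-214-3p they were co-ex female O3 replicate 3 with 1441 (next 371), KO male FA replicate 2 with 449 (next 46.3) and KO female FA replicate 3 with 1425 (next 158). mmu-mir-145a-3p was at 57.2 in SP-A2 female FA replicate 2 (next 8.73), and mmu-mir-199a-5p at 140.0 in SP-A2 female O3 replicate 3 (next 57.5). mmu-mir-143-3p and mmu-mir-199b-3p had no such mouse in these groups.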

How the results depend on the processing

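Of the values of a member's log2 difference between O3 and FA under another setting, 407 kept direction and side of the threshold, 23 passed it newly, 10 no longer passed it and 7 changed sign, and the causes were not tested. In co-ex males, mmu-mir-145a-5p was -0.39 with edgeR, -0.26 with DESeq2 and -0.59 (without FA replicate 3) to 2.497 without single mice, and mmu-mir-214-3p was -0.12 with the replicate block and -0.12 (without FA replicate 4) to 3.39 without single mice. In KO females, mmu-mir-214-3p was -0.074 with DESeq2 and -0.022 (without FA replicate 1) to 1.37 without single mice. A value of 0 reads allows up to 3 reads at any depth.

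DESeq2 called more than limma. It called 54 miRNAs (3 members) for males and 26 (3) for females of SP-A2, 5 (0) and 14 (3) for co-ex, and 41 (3) and 2 (1) for KO. limma called 3 and 4, 0 and 4, and 17 and 0 miRNAs. edgeR called 5 miRNAs in SP-A2 males, 1 member in the SP-A2 females and 0 miRNAs and 0 members in co-ex females. An FDR of 0.05 left 1 miRNA in SP-A2 males, 10 miRNAs and 1 member in KO males, 2 miRNAs between the SP-A2 sexes, 12 between SP-A2 and KO, 2 between co-ex and KO and 0 for the responses of co-ex against KO and against SP-A2. Between the sexes, DESeq2 called 68 miRNAs and 1 member in SP-A2 and 13 and 1 in KO, and RLE scaling 23 miRNAs in SP-A2. Between genotypes, DESeq2 called 1 member for SP-A2 minus KO, 21 miRNAs for co-ex minus KO and 2 members for co-ex minus SP-A2. Nothing is read from these member calls, since the share of all miRNAs that DESeq2 called there is not given. filterByExpr gave 12 miRNAs for co-ex minus KO. The responses gave 1 (co-ex minus KO) and 0 (co-ex minus SP-A2) miRNAs with a pseudocount of 0.1, 0 for co-ex minus KO with 10, and 0 for co-ex minus SP-A2 with edgeR. With a pseudocount of 10, 0 pairs of members were called.

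Labels number the mice alike across exposures, but 6 of 22 same-numbered pairs had a correlation above 0.1 (-0.14 to 0.27) and 4 of 22 O3 mice correlated best with their own number. No pairing by number was thus seen, though groups this small could miss one. With the replicate block, 1 miRNA was called in SP-A2 males, 0 in the SP-A2 females, 2 in KO females, 21 for co-ex minus KO, 1 for the response of co-ex minus KO and 0 for that of co-ex minus SP-A2. With the block, mmu-mir-199b-3p was -0.39 between the co-ex sexes and mmu-mir-214-3p 0.013 for co-ex minus KO.

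Without single mice, called members were 0 to 3 in SP-A2 males (changed without O3 replicate 3), 0 to 3 in the SP-A2 females (FA replicate 4, O3 replicates 2 and 4), 0 to 2 in co-ex females (FA replicates 1, 2 and 3, O3 replicate 1) and 1 to 3 in KO males (lower without FA replicates 1, 3 and 4 and O3 replicates 2 and 3). They were 0 to 1 between the SP-A2 sexes (male O3 replicate 3, female FA replicate 4) and 0 to 2 for co-ex minus SP-A2 (co-ex male FA replicate 3 and O3 replicate 1, co-ex female FA replicate 3, SP-A2 female FA replicate 2). Called miRNAs were 1 to 40 and 0 to 26 in the SP-A2 tables (males, females), 0 to 13 in co-ex females, 5 to 27 and 0 to 1 in the KO tables, 0 to 57 (SP-A2), 0 to 2 (co-ex) and 0 to 1 (KO) between the sexes, 12 to 25 for SP-A2 minus KO, 2 to 16 for co-ex minus KO, and 0 to 5 and 0 to 2 for the responses of co-ex minus KO and minus SP-A2.

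Among small differences with no call, signs also changed. For co-ex minus KO, mmu-mir-214-3p was 0.030 with RLE, 0.030 with DESeq2 and -0.22 to 0.51 without single mice, mmu-mir-143-3p was -0.31 to 0.40 and mmu-mir-145a-5p -0.54 to 3.03. Without single mice, mmu-mir-145a-5p was -0.69 to 0.69 for co-ex minus SP-A2 and -1.81 to 0.10 for the response of co-ex minus KO, mmu-mir-199b-3p -1.04 to 0.67 between the co-ex sexes, mmu-mir-145a-3p -1.001 to 0.73 between the SP-A2 sexes and mmu-mir-214-3p -1.94 to 0.057 between the KO sexes. For the response of males minus females, mmu-mir-199b-3p was 0.031 with a pseudocount of 10, 0.42 with edgeR and -0.47 to 0.37 without single mice, and mmu-mir-214-3p -1.15 to 0.18. For the response of SP-A2 minus KO, mmu-mir-214-3p was 0.069 with a pseudocount of 10, 0.76 with edgeR and -0.52 to 0.27 without single mice, and mmu-mir-199b-3p -0.76 to 0.27. For co-ex minus SP-A2 with edgeR, the response was -0.70 for mmu-mir-145a-5p and -0.002075 for mmu-mir-214-3p. Of the correlations, r of mmu-mir-145a-5p was 0.0085 with mmu-mir-199a-5p after subtracting medians, 0.038 with mmu-mir-199b-3p without 2 mice, and with mmu-mir-214-3p 0.019 with a pseudocount of 10 and 0.015 without 2 mice. That of mmu-mir-145a-3p without 2 mice was -0.35 with mmu-mir-199a-5p and 0.39 with mmu-mir-199b-3p. That of mmu-mir-199b-3p was -0.036 (medians subtracted) and -0.17 (without 2 mice) with mmu-mir-199a-5p and -0.063 (medians subtracted) with mmu-mir-214-3p.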
